A study of Mus musculus with 18 samples.

Results

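Expression of 8 genes of the LIF receptor pathway was followed: *Lifr*, *Il6st*, *Jak1*, *Stat3*, *Socs2*, *Socs3*, *Pim1* and *Pim3*. These 8 genes, of 14804 listed in at least one cell type, were chosen by symbol from the pathway with earlier results of the same TPM values known, so their values, and the DE calls among them, are given as a description with no p-value printed for a single gene. TPM is the reads of a gene divided by its length and scaled to a set total per library. The length used here was the gene span including introns, so the values are not shares of transcripts. All 8 genes were listed in ESCs (13578 genes), TSCs (13518 genes) and XEN cells (11538 genes), and all 8 passed the filter on low values in each.

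LIF is a cytokine of the interleukin-6 family that keeps mouse ESCs in self-renewal. It binds LIFR, which pairs with the shared chain gp130 (encoded by *Il6st*); receptor-bound kinases such as JAK1 then phosphorylate STAT3, which enters the nucleus and switches on its targets. SOCS proteins are induced by this route and damp it in turn, and the PIM kinases are products of STAT target genes that favour survival and growth.

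The study asked how embryonic and extraembryonic stem cells respond to low oxygen. ESCs were wild-type E14 cells grown without feeders on gelatin in serum medium with LIF. TSCs, trophoblast stem cells that model the placental lineage, were grown on feeder fibroblasts with FGF4 and heparin, and XEN cells, which model the primitive endoderm, on gelatin in medium conditioned by fibroblasts. LIF is named as an additive of the ESC medium only. No line is named for the TSCs or the XEN cells, and the labels name no genetic change in any of the cells. Each cell type was sampled in normoxia, at day 2 of hypoxia (acute) and at day 7 (prolonged), with 2 libraries per condition and 18 in all. Normoxic columns are labelled day 0, and no normoxic library is labelled day 2 or day 7. Effects of hypoxia and of time in culture therefore cannot be told apart in any comparison. The libraries are described as biological replicates, and how they were separated is not stated, so the errors and p-values measure only the spread between these libraries.

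Between 35592641 and 75204029 reads per library lay behind the values, as recovered from the TPM, and the replicates of a condition correlated at r = 0.967 to 0.995 across genes. The labelled cell types carried their markers. The 5 ESC markers (*Pou5f1*, *Nanog*, *Sox2*, *Zfp42*, *Esrrb*) summed to 6070.2 to 6858 TPM in ESCs, the 5 TSC markers (*Cdx2*, *Eomes*, *Elf5*, *Gata3*, *Tfap2c*) to 647 to 1180.5 TPM in TSCs and the 6 XEN markers (*Gata4*, *Gata6*, *Sox17*, *Sox7*, *Dab2*, *Foxa2*) to 2169 to 2697 TPM in XEN cells. Of the TSC libraries, 2 stood apart. The 10 feeder fibroblast markers, all listed in TSCs, summed to 1869 TPM in normoxia replicate 1 and 962 TPM in day 2 replicate 2, against 206 to 435 TPM in the other 4 TSC libraries. The same list summed to 24.4 to 41.9 TPM in ESCs and to 0.769 to 2.01 TPM in XEN cells, where 6 and 3 of its 10 genes were listed.

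The ranges of *Lifr*, *Socs2* and *Jak1* were apart in all 3 cell types. Each table had been normalized on its own, so reads were recovered, divided by summed exon length and scaled over the 10744 genes listed in all 3 tables; no test was made across cell types. On this exon-length scale *Lifr*, the LIF-specific receptor chain, lay between 139 and 219 in the 6 XEN libraries (median 159), between 44.1 and 63.0 in the 6 ESC libraries (median 51.0) and between 3.51 and 6.20 in the 6 TSC libraries (median 5.30). The 3 cell types did not overlap. In normoxia the level of *Lifr* in XEN cells was 35.2-fold that in TSCs (log2 difference 5.14 ± 0.25, SD, n = 2 each) and 2.52-fold that in ESCs (1.33 ± 0.14). *Il6st*, the chain shared by the whole cytokine family, showed no such order: its exon-length level had medians of 63.8 in XEN cells, 55.1 in ESCs and 44.3 in TSCs, and the ranges overlapped between every pair.

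*Jak1*, the receptor-bound kinase, was highest in TSCs. Its exon-length level ran from 84.1 to 129 in TSCs, from 51.4 to 60.5 in XEN cells and from 33.9 to 40.5 in ESCs, again without overlap. *Stat3*, the transcription factor of the pathway, had medians of 93.9, 71.1 and 64.0 in XEN cells, TSCs and ESCs. XEN cells (76.4 to 109.6) lay above ESCs (57.4 to 68.7), and TSCs (52.2 to 99.2) overlapped both.

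The feedback inhibitors *Socs2* and *Socs3* are given side by side. *Socs2* ran from 32.4 to 39.2 in ESCs, from 3.63 to 18.7 in TSCs and from 0.883 to 3.21 in XEN cells on the exon-length scale, and no library of one cell type reached the range of another. In normoxia its level in ESCs was 15.5-fold that in XEN cells and 2.19-fold that in TSCs. *Socs3* was abundant in all 3: 187 to 351 in ESCs, 63.3 to 242 in XEN cells and 83.0 to 168 in TSCs. ESCs lay above TSCs, and XEN cells overlapped both.

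For the *Pim* genes the ESC level was the highest of the medians. The medians of *Pim1* in ESCs, TSCs and XEN cells were 93.6, 51.0 and 20.99, and those of *Pim3* were 354, 138 and 135, all per exon length. ESC and XEN libraries did not overlap for either gene, and TSC libraries overlapped both. Within ESCs the order of exon-length medians among the 8 genes was *Pim3*, *Socs3*, *Pim1*, *Stat3*, *Il6st*, *Lifr*, *Jak1* and *Socs2*. The ranges of *Pim3* and *Socs3* (293 to 393 and 187 to 351) overlapped. The ranges of *Stat3* (57.4 to 68.7), *Il6st* (43.9 to 61.1) and *Lifr* (44.1 to 63.0) overlapped those of their neighbours among these 3, as did those of *Jak1* and *Socs2*. In XEN cells *Socs3* (median 186) and *Lifr* (159) came first, followed by *Pim3* (135), with overlapping ranges between all 3, and *Socs2* (2.10) last.

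**Figure D1:**
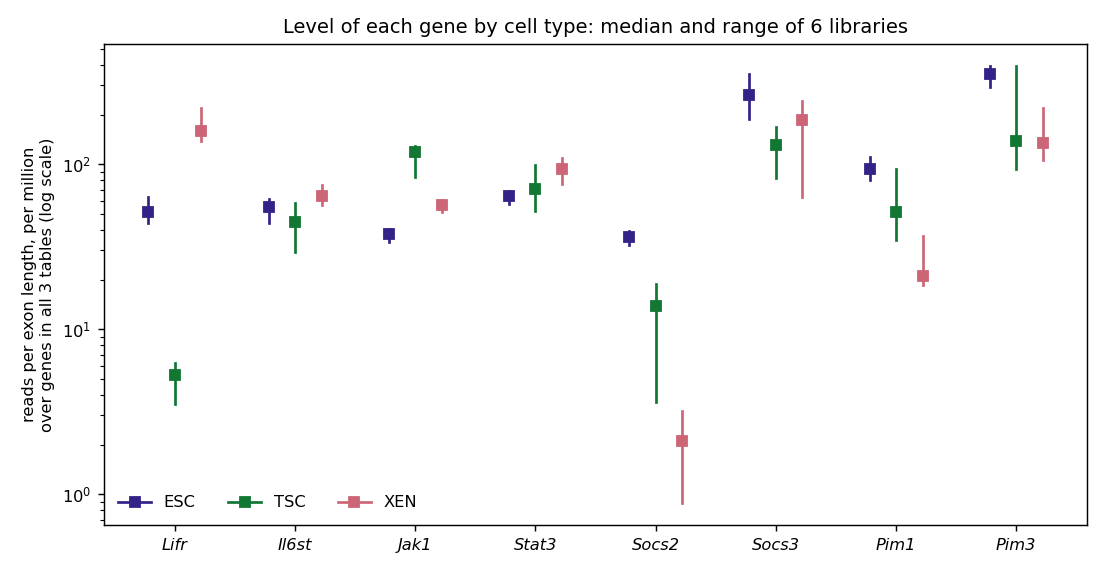
Level of each of the 8 genes (x axis) per exon length, on the scale shared by the 10744 genes listed in all 3 tables (y axis, log scale). Squares are medians and lines the range of the 6 libraries of a cell type; *Lifr*, *Jak1* and *Socs2* are the genes whose 3 ranges are all apart.

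The hypoxia comparisons were made within each cell type on the deposited TPM. Fold changes were fitted with limma on log2(TPM + 0.5), over the 6 libraries of a cell type. A gene was called DE at a Benjamini-Hochberg adjusted p of at most 0.1 and a fold change over 1.5. Since 0.5 is added, the folds of the low genes (*Lifr* in TSCs, *Socs2* in TSCs and XEN cells) are understated. Deposited TPM had been divided by the span of the gene including introns, so they are compared between conditions and not between genes. The samples were bulk RNA, in which fewer cells of a type and less RNA per cell cannot be told apart.

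*Lifr* lies on chromosome 15 (GRCm38, chr15:7090614-7197489, plus strand). In ESCs its TPM was 18.4 and 15.2 in normoxia, 12.6 and 14.6 at day 2 and 15.1 and 14.1 at day 7. Both hypoxic groups lay under both normoxic libraries, with log2 fold changes of -0.29 ± 0.17 (SE) at day 2 and -0.19 ± 0.17 at day 7. In XEN cells the values were 44.7 and 49.5 in normoxia, 51.9 and 55.5 at day 2 and 70.4 and 52.2 at day 7. There both hypoxic groups lay above normoxia, by 0.19 ± 0.18 and 0.36 ± 0.18 on the log2 scale. TSC libraries held 1.07 and 1.46 TPM in normoxia, 1.77 and 1.71 at day 2 and 1.84 and 1.07 at day 7, with 387 to 764 reads on the gene. Day 2 lay above normoxia (0.35 ± 0.30) and day 7 overlapped it (0.13 ± 0.30).

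*Il6st* (chr13:112464070-112510086, plus strand) overlapped between conditions in every comparison in all 3 cell types. Its log2 fold changes against normoxia lay between -0.38 (TSCs at day 2, SE 0.31) and 0.15 (ESCs at day 7, SE 0.19). In TSCs its TPM was 40.6 and 30.2 in normoxia, 21.5 and 33.3 at day 2 and 41.2 and 27.1 at day 7, so the replicates of a condition were as far apart as the conditions.

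*Jak1* (chr4:101152367-101265282, minus strand) overlaps *Raver2* on the other strand and the processed pseudogene *Gm12785* on its own. Whether the counting used strand is not stated, so reads of the overlap could have been counted for either gene or dropped. The TPM of *Jak1* in ESCs was 7.53 and 6.31 in normoxia, 6.70 and 6.28 at day 2 and 7.36 and 7.05 at day 7, with overlap of both hypoxic groups and normoxia. In XEN cells it was 10.5 and 11.5, then 11.9 and 11.5, then 12.03 and 12.4, so that both hypoxic groups lay narrowly above normoxia (0.09 ± 0.17 and 0.15 ± 0.17). TSCs held 24.9 and 21.4, 22.3 and 23.3, and 23.5 and 15.1 TPM, and the conditions overlapped.

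*Stat3* (chr11:100885098-100939540, minus strand) overlaps *Stat5a* on the other strand, with the same limit. ESC values were 34.9 and 31.9 TPM in normoxia, 31.5 and 29.0 at day 2 and 32.8 and 31.5 at day 7. Day 2 lay under normoxia (-0.14 ± 0.14) and day 7 overlapped it (-0.05 ± 0.14). XEN cells held 55.3 and 56.4 TPM in normoxia, 63.1 and 46.4 at day 2 and 42.5 and 49.6 at day 7. Here day 7 lay under normoxia (-0.28 ± 0.19). TSC values were 38.2 and 33.8, 52.5 and 36.5, and 44.5 and 25.6 TPM, and they overlapped throughout. In TSCs at day 7 the 4 signalling genes *Lifr*, *Il6st*, *Jak1* and *Stat3* were all lower in replicate 2 than in replicate 1. The feeder marker sums there were 262 TPM in replicate 2 and 435 TPM in replicate 1. In normoxia the feeder-rich replicate 1 had the lower *Lifr* but the higher *Il6st*, *Jak1* and *Stat3*. At day 2 the feeder-rich replicate 2 had the lower *Lifr* and *Stat3* but the higher *Il6st* and *Jak1*. The part of the feeders in these differences was not tested.

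*Socs2* (chr10:95385362-95417180, minus strand), an inhibitor best known for damping growth hormone receptor and STAT5 signalling, had the largest change of the 8 genes. In TSCs its TPM was 16.9 and 14.1 in normoxia, 10.6 and 16.0 at day 2 and 3.22 and 3.05 at day 7. Normoxia and day 2 overlapped, and both day 7 libraries lay under all the others. The log2 fold change at day 7 was -2.13 ± 0.27 (SE) against normoxia, a 4.39-fold lower level, and -1.90 ± 0.27 against day 2. In the fit over all 12481 genes tested in TSCs *Socs2* ranked as number 27 from the lowest fold change at day 7 against normoxia. The fall against normoxia was -2.01 without normoxia replicate 1, the library richest in feeder markers, and -2.26 without normoxia replicate 2.

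The DE call of *Socs2* against normoxia was lost when normoxia replicate 1 or either day 7 library was left out, with fold changes of -2.01, -2.17 and -2.10 on the log2 scale, and it was lost without the filter on low values and with a replicate block. Against day 2 the call was lost without day 2 replicate 1 (-2.18) and without day 7 replicate 2 (-1.87), and it held without day 2 replicate 2, the other feeder-rich library (-1.62). The median of all genes was -0.18 at day 7 against normoxia in TSCs. With libraries scaled to their median ratio, which brings that median to -0.01, *Socs2* was -1.96 and still called.

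Beside the fall of *Socs2*, marker sums moved in the same TSC libraries. Deposited TPM are divided by gene span, so these sums weigh genes of short span more. The 5 TSC markers summed to 1077 and 1079 TPM in normoxia, 909.9 and 1180.5 at day 2 and 729 and 647 at day 7. At day 7 *Cdx2* had 40.3 and 35.1 TPM against 139.6 and 125 in normoxia, and *Eomes* 142 and 104 against 439 and 364. *Elf5* had 18.8 and 14.7 against 60.4 and 56.6. By contrast *Tfap2c*, the largest part of the day 7 sum, had 488 and 463 against 396 and 484. Of the ESC list, 4 genes were listed in TSCs (*Pou5f1* was not), some of which trophoblast stem cells also express, and they summed to 741 and 786, 1164 and 1211, and 217 and 172 TPM. The sums of the differentiated trophoblast list (7 of 9 genes listed, *Ctsq* and *Tpbpa* not) were 8680.2 and 14457 TPM in normoxia, 8610.0 and 7282 at day 2 and 14796 and 12919.6 at day 7, and were almost wholly *Hand1* (8648 and 14196, 8568 and 7234, and 14763 and 12871.5 TPM). Of the others, *Prl3d1* had 0.391 and 1.17 TPM in normoxia and 3.22 and 6.53 at day 7. *Flt1* had 16.2 and 19.6 and then 13.5 and 12.9, and *Ascl2* had 4.35 and 7.38 and then 5.91 and 5.46. Values of *Prl2c2*, *Gcm1* and *Syna* are not given, so no direction is read for the list. The part of these cells in the change of *Socs2*, *Pim1* and *Pim3* was not tested.

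In ESCs and XEN cells *Socs2* was not called DE in any comparison. ESC libraries had 32.6 and 32.4 TPM in normoxia, 29.5 and 28.1 at day 2 and 30.1 and 33.6 at day 7. Day 2 lay under normoxia (-0.17 ± 0.13) and day 7 overlapped it (-0.03 ± 0.13). XEN libraries had 3.07 and 1.78 TPM in normoxia, 2.71 and 2.25 at day 2 and 0.842 and 1.11 at day 7, where the gene had as few as 92 reads. Both day 7 libraries lay under the other 4, with a log2 fold change of -0.96 ± 0.28 against normoxia. Without normoxia replicate 1 it was -0.63.

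*Socs3* (chr11:117966079-117970047, minus strand) encodes the inhibitor that binds gp130 and is the classical feedback target of STAT3. The window from 250 bases before to 50 bases after its RefSeq start (GRCm38.p6, chr11:117969317-117969616, minus strand) is shown because it is the only one of the 7 member windows found that holds the STAT-type letters TTCNNNGAA, which are in capitals:
Socs3: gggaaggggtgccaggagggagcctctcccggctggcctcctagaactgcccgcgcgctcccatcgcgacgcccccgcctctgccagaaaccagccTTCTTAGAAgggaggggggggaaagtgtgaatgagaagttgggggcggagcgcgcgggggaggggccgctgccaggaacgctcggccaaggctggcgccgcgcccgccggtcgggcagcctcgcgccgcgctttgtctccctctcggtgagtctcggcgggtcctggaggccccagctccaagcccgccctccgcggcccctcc

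The match TTCTTAGAA starts at position -154 from the RefSeq start site. The whole *Socs3* window lies inside the gene span given above, so the match is within the annotated gene and not upstream of it. Both strands were searched, and 8.3% of 32851 promoter windows of this length hold the letters, so the match is a description and not a binding site.

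In ESCs *Socs3* held 477 and 385 TPM in normoxia, 525 and 684 at day 2 and 740.3 and 561 at day 7. All 4 hypoxic libraries lay above both normoxic ones, and the log2 fold changes were 0.48 ± 0.19 at day 2 and 0.59 ± 0.19 at day 7; neither was called DE. In TSCs its TPM was 182 and 280.4 in normoxia, 320.2 and 285 at day 2 and 225 and 343 at day 7. Day 2 lay above normoxia (0.42 ± 0.28) and day 7 overlapped it. In XEN cells the values were 522 and 147 in normoxia, 551 and 564 at day 2 and 340.1 and 201 at day 7. The normoxic replicates of XEN cells were the farthest apart of any group of the 8 genes (334 ± 265, SD, n = 2), and the fold change at day 2 of 1.01 ± 0.55 on the log2 scale rested on them. It was 1.92, with a DE call, without normoxia replicate 1, and 0.10, with no call, without normoxia replicate 2. Day 7 lay under day 2 in XEN cells, by -1.09 ± 0.55.

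*Pim1* (chr17:29490753-29496112, plus strand) and *Pim3* (chr15:88862186-88865726, plus strand) encode serine/threonine kinases of a family that is controlled mainly by how much of the protein is made. *Pim1* overlaps the antisense gene *Gm26885*, whose reads cannot be told apart from its own without strand. Their promoter windows are shown because the genes moved together in TSCs (chr17:29490535-29490834 and chr15:88861944-88862243, GRCm38.p6, plus strand); capitals mark the letters ACGTG or GCGTG, the core of the sites that hypoxia-inducible factors bind, on either strand:
Pim1: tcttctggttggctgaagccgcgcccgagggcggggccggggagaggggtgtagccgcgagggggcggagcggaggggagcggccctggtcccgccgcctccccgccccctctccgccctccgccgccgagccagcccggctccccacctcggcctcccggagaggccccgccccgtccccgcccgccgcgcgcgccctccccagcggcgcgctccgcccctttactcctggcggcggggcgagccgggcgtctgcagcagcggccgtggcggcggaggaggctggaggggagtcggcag
Pim3: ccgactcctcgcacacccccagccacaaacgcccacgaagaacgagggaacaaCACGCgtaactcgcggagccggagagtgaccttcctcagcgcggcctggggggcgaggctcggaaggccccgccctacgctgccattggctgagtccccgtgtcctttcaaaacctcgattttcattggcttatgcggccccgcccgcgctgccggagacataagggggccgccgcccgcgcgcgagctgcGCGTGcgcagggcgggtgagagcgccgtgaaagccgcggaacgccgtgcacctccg

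*Pim3* holds 2 such matches, at positions -197 and -6, and *Pim1* none. These letters are in 43.8% of the 32851 windows, and ACGTG is also part of the E-box CACGTG. Among the 7 windows found (none for *Socs2*), *Lifr*, *Jak1* and *Stat3* hold 1 each and *Il6st* and *Socs3* none. The *Lifr* window (chr15:7129322-7129621) lies inside the gene span given above, far downstream of the start of that span. TTCNNNGAA is in neither *Pim* window.

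In TSCs *Pim3* had 302 and 263 TPM in normoxia, 819 and 474 at day 2 and 203 and 180.4 at day 7. Both day 2 libraries lay above normoxia and both day 7 libraries under it. The log2 fold changes were 1.14 ± 0.27 at day 2 and -0.56 ± 0.27 at day 7, neither called DE, and -1.70 ± 0.27 at day 7 against day 2, which was called DE. The day 2 difference was 1.54 without day 2 replicate 2, which was rich in feeder markers, and 0.75 without day 2 replicate 1. *Pim1* followed with 72.9 and 127 TPM in normoxia, 177 and 119 at day 2 and 70.2 and 61.4 at day 7. Day 2 overlapped normoxia (0.59 ± 0.31), day 7 lay under it (-0.55 ± 0.31), and day 7 against day 2 was -1.14 ± 0.31, called DE.

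Both day 7 calls of the *Pim* genes against day 2 were lost without day 2 replicate 1 (-0.85 for *Pim1* and -1.31 for *Pim3*), without day 7 replicate 1 (-1.23 and -1.79) and without day 7 replicate 2 (-1.04 and -1.62). Without the feeder-rich day 2 replicate 2 they were -1.42 and -2.09, and both were still called. The median of all genes at day 7 against day 2 was -0.24 in TSCs. With libraries scaled to their median ratio, which brings that median to 0.01, *Pim3* was -1.42 and called and *Pim1* was -0.86 and not called. *Pim1* also lost its call with voom on recovered reads (-1.002) and with a replicate block.

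ESCs and XEN cells gave smaller differences than TSCs for the *Pim* genes at day 2 against normoxia and at day 7 against day 2. At day 7 against normoxia the XEN values (0.45 for *Pim1* and 0.55 for *Pim3*) were near in size to those of TSCs, with the opposite sign. *Pim1* in ESCs had 146 and 153 TPM in normoxia, 163 and 195 at day 2 and 200.4 and 172 at day 7, and all hypoxic libraries lay above normoxia (0.25 ± 0.14 and 0.32 ± 0.14). *Pim3* in ESCs had 725 and 756, 767 and 580.1, and 681 and 586 TPM, with day 7 under normoxia (-0.23 ± 0.16). In XEN cells *Pim3* had 271 and 231 TPM in normoxia, 239.6 and 483 at day 2 and 418 and 319 at day 7, with day 7 above normoxia (0.55 ± 0.33). *Pim1* in XEN cells had 44.2 and 36.9, 39.3 and 42.5, and 73.0 and 41.7 TPM, and the conditions overlapped.

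**Figure D2:**
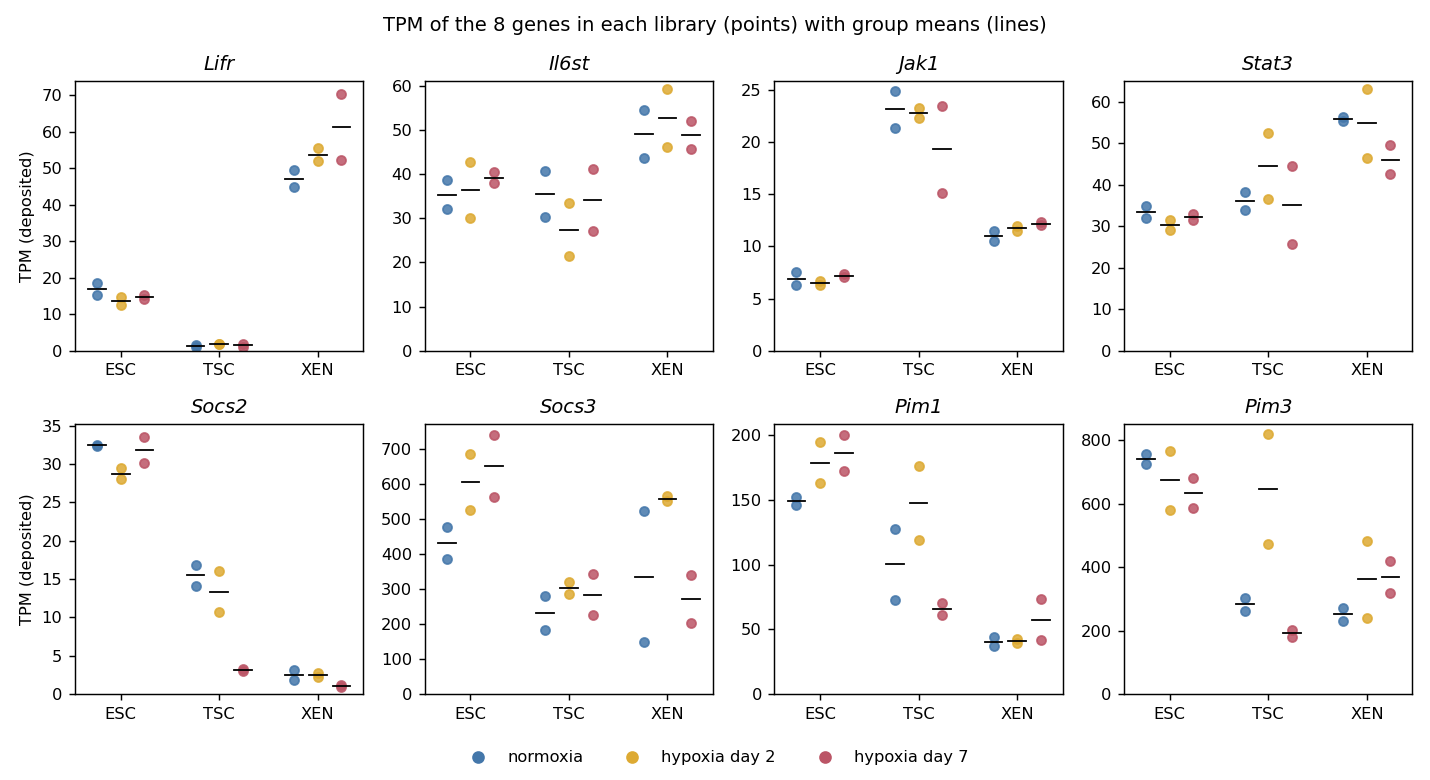
Deposited TPM (y axis, linear from 0, one scale per gene) of the 8 genes in each library of ESCs, TSCs and XEN cells. Points are libraries, coloured by condition, and black lines are means of 2; in TSCs *Socs2* lies at 3.22 and 3.05 at day 7 and *Pim3* at 819 and 474 at day 2.

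**Figure D3:**
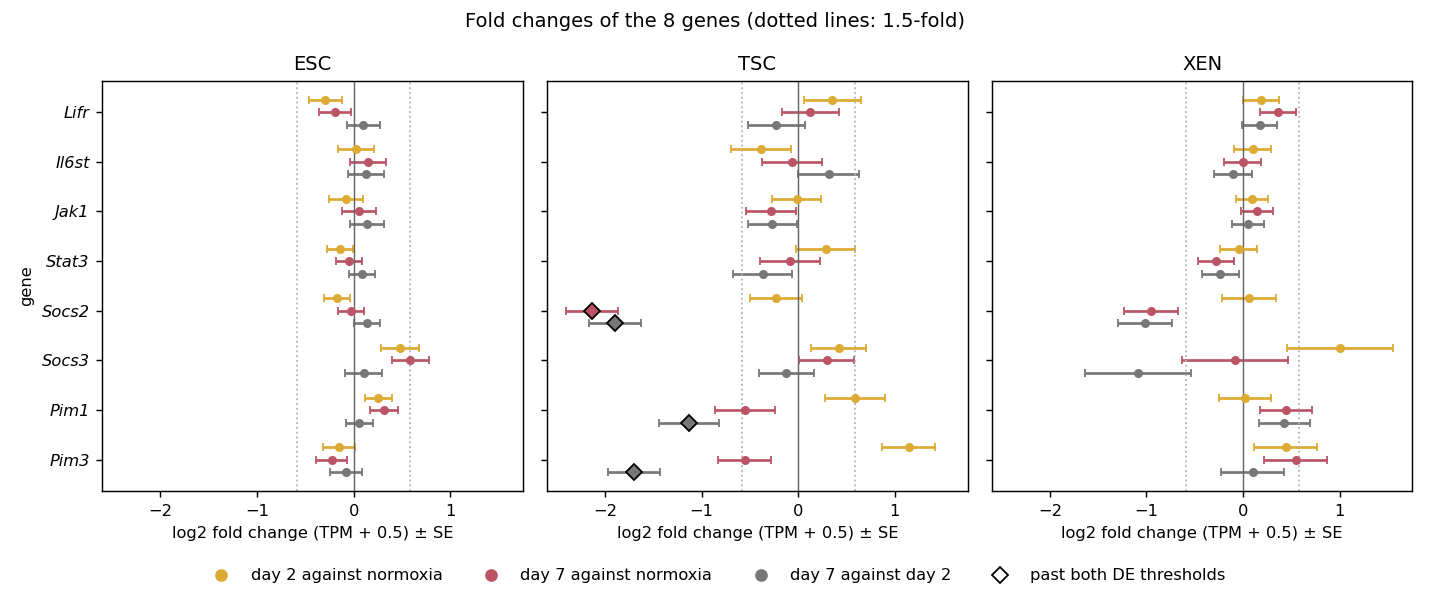
Log2 fold changes of TPM + 0.5 (x axis, points, with SE as bars) for the 8 genes (y axis) in ESCs, TSCs and XEN cells, for day 2 and day 7 against normoxia and day 7 against day 2; comparisons within a cell type share libraries. Diamonds pass both DE thresholds and dotted lines mark 1.5-fold; the 4 diamonds are *Socs2* (-2.13 and -1.90), *Pim1* (-1.14) and *Pim3* (-1.70) in TSCs.

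**Figure D4:**
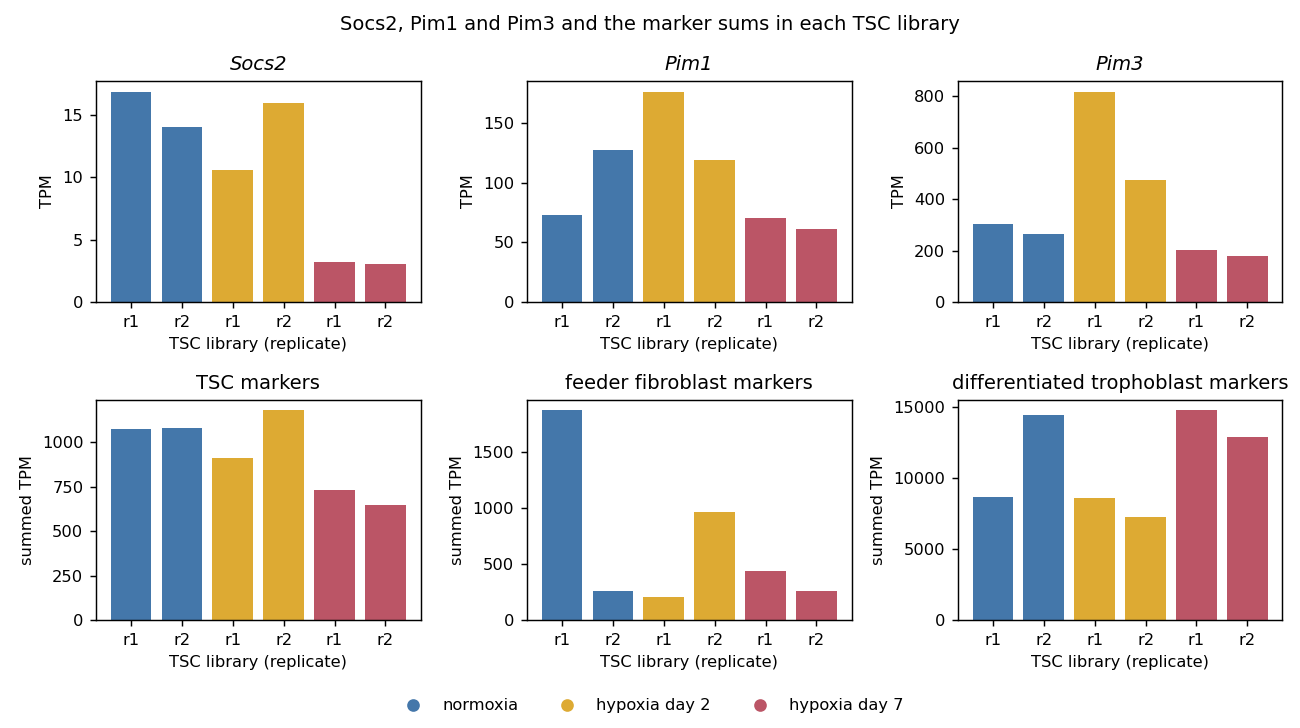
TPM of *Socs2*, *Pim1* and *Pim3* (upper row) and summed TPM of the TSC, feeder fibroblast and differentiated trophoblast markers (lower row) in each of the 6 TSC libraries; bars start at 0 and are coloured by condition, r1 and r2 being the replicates. The feeder sum is highest in normoxia replicate 1 (1869), while *Socs2* is low in both day 7 libraries and in no other.

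Counts of DE calls among the 8 genes are given beside the share of all genes. Because the 8 genes were chosen on these values, nothing is read from the counts. In TSCs 1 of 8 was DE at day 7 against normoxia (*Socs2*), beside 0.385% of the 12481 genes tested, and 3 of 8 at day 7 against day 2 (*Socs2*, *Pim1* and *Pim3*), beside 16.2%, where 1723 of the 2019 DE genes were lower. In TSCs at day 2 none of the 8 was DE, beside 0.2% of all genes. In ESCs limma called none of the 8 at day 2 against normoxia (0% of 12271 genes), at day 7 (0.758%) or at day 7 against day 2 (0.179%). XEN cells also had no call among the 8, at day 2 (0% of 10894 genes), at day 7 (0.11%) or at day 7 against day 2 (0.0367%). The study's own count test, at the same thresholds, called more genes in every comparison with normoxia. A missing call here is therefore no evidence that a gene was unchanged. At an unadjusted p under 0.05, 1 of the 8 passed in ESCs at day 2 (beside 5.1% of all genes), 1 in ESCs at day 7 (8.0%), 1 in TSCs at day 2 (13.1%), 1 in XEN cells at day 7 (9.0%) and 1 in XEN cells at day 7 against day 2 (11.9%). None passed in ESCs at day 7 against day 2 (4.3%) or in XEN cells at day 2 (7.8%), and voom on recovered reads also called 0 of the 8 in each of these comparisons.

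Genes whose libraries did not overlap between conditions are counted beside their share among all genes. Against normoxia, 5 of the 8 genes did not overlap in ESCs at day 2 (30.8% of all genes) and 4 at day 7 (40.5%). In TSCs it was 3 at day 2 (47.4%), all higher, and 3 at day 7 (41.3%), all lower. In XEN cells it was 3 at day 2 (41%), all higher, and 5 at day 7 (41.3%), 3 of them higher. The direction of the non-overlapping genes was not counted over all genes. Of all genes DE against normoxia in TSCs, 24 of 25 were higher at day 2 and 43 of 48 lower at day 7. The median log2 fold change of the 8 genes in TSCs was 0.32 at day 2 and -0.19 at day 7, beside 0.07 and -0.18 over all genes tested. In ESCs it was -0.11 and 0.01, beside 0.01 and 0.02, and in XEN cells 0.10 and 0.07, beside -0.01 and -0.03.

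The wider pathway was read from 48 further genes: ligands, receptor chains, kinases, STATs, inhibitors and targets of LIF or STAT3. Of these, ESCs had 43 tested, TSCs 45 and XEN cells 40. The wider list, too, was chosen with earlier results of these data known. Its counts and adjusted p-values are therefore a description, and nothing is read from them. In ESCs and XEN cells limma called none of its genes DE in any comparison. At an unadjusted p under 0.05, 3 of 43 (7.0%) passed in ESCs at day 2, 7 (16.3%) at day 7 and 2 (4.7%) at day 7 against day 2, beside 5.1%, 8.0% and 4.3% of all genes. In XEN cells 0, 7 and 7 of 40 (17.5% for each 7) passed in the same order, beside 7.8%, 9.0% and 11.9%. Voom on recovered reads called 0 of them in these comparisons as well.

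In TSCs none of the 45 was DE at day 2, beside 0.2% of all genes, and voom called 0 as well. At an unadjusted p under 0.05, 10 of the 45 (22.2%) passed there, beside 13.1% of all genes. At day 7 against normoxia 1 was DE, beside 0.385%. It was *Cntfr*, the ligand-binding chain for ciliary neurotrophic factor, which fell from 5.06 and 4.74 TPM to 1.202 and 1.34 (log2 fold change -1.61 ± 0.25, limma adjusted p = 0.0957); the call was lost in 10 of the 15 alternatives, among them voom (adjusted p = 0.118). On day 7 against day 2, 10 of the 45 (22.2%) were DE, 2 higher and 8 lower, beside 16.2% of all genes. The inhibitor *Socs1* rose from 29.5 and 36.8 to 56.7 and 54.9 TPM (0.75 ± 0.20, adjusted p = 0.0648), and the ligand gene *Osm* from 0.327 and 1.53 to 3.41 and 3.62 (1.63 ± 0.44, adjusted p = 0.0678, and 0.98 with no call without day 2 replicate 1). In normoxia *Socs1* had 57.7 and 66.5 TPM, so its day 7 level lay near normoxia and its day 2 level under both.

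Among the 8 that fell at day 7 against day 2 were *Pim2*, *Cish* and *Stat5b*. *Pim2* fell from 87.1 and 58.2 to 27.4 and 24.8 TPM (-1.43 ± 0.24, adjusted p = 0.0242), as did *Pim1* and *Pim3*. *Cish*, a STAT5 target and inhibitor, fell from 52.5 and 19.0 to 12.3 and 11.6 TPM (-1.37 ± 0.43, adjusted p = 0.0967, and -0.65 with no call without day 2 replicate 1), and *Stat5b* itself from 11.6 and 10.5 to 6.61 and 3.83 (-1.05 ± 0.30, adjusted p = 0.0779, and -0.69 with no call without day 7 replicate 2). *Cntfr* fell by 1.59 on the log2 scale (adjusted p = 0.0215). The other 4 were the kinase gene *Jak3* (-0.71) and the targets *Klf5* (-1.01), *Gbx2* (-0.92) and *Mcl1* (-0.65). Their limma adjusted p-values were 0.0944, 0.065, 0.0617 and 0.0829. For *Pim2*, *Cish*, *Stat5b*, *Jak3*, *Klf5* and *Mcl1* day 2 lay above both normoxic libraries, whereas for *Gbx2* and *Cntfr* it overlapped normoxia. *Jak3* at day 7 (29.4 and 30.1 TPM) lay within its normoxic range (26.4 and 36.5). Day 7 of the rest of the 8 lay under normoxia. With median-ratio scaling 5 of the 45 were DE, 3 higher and 2 lower, *Pim2* and *Cntfr* being the 2 lower; all genes then split into 724 higher and 982 lower, against 296 and 1723 with TPM as deposited. All 10 calls were lost without day 2 replicate 1 and without either day 7 library, when none of the 45 was DE.

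The largest differences of the wider list from normoxia were not DE, with the exception of *Cntfr* in TSCs, and several rested on 1 library. *Ier3*, an immediate early gene, had the largest positive difference in ESCs, with 69.3 and 41.3 TPM in normoxia, 78.1 and 131 at day 2 and 186 and 75.8 at day 7 (0.91 ± 0.42 and 1.14 ± 0.42, limma adjusted p = 0.97 and 0.5). At day 7 the ESC value was 0.50 without day 7 replicate 1. In XEN cells *Ier3* also had the largest positive difference from normoxia, with 185 and 97.1, 263 and 353, and 712 and 228 TPM (1.18 ± 0.54 and 1.58 ± 0.54, adjusted p = 0.669 and 0.483), and the day 7 value was 0.76 without day 7 replicate 1. *Cebpb*, a transcription factor, had the largest negative difference in ESCs, with 14.1 and 64.9 TPM in normoxia, 13.7 and 21.4 at day 2 and 12.7 and 6.75 at day 7 (-0.81 and -1.66). Without normoxia replicate 2 these were 0.27 and -0.58, so the day 2 difference changed sign. In XEN cells *Cebpb* had the largest negative difference at day 2, with 10.2 and 2.63 TPM in normoxia and 2.67 and 2.33 at day 2 (-0.95, and -0.06 without normoxia replicate 1). There *Sgk1* had it at day 7, with 36.5 and 14.4 TPM in normoxia and 10.8 and 11.7 at day 7 (-0.9996, and -0.34 without normoxia replicate 1).

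In TSCs the extremes at day 2 were *Cebpb* and *Il11*, and each rested on a feeder-rich library. *Cebpb* had 63.4 and 39.3 TPM in normoxia and 75.5 and 311 at day 2 (1.61, and 0.59 without day 2 replicate 2). *Il11* had 13.7 and 3.27 TPM in normoxia and 1.46 and 3.84 at day 2 (-1.33, and -0.37 without normoxia replicate 1). The part of the feeders in these values was not tested. At day 7 the extremes were *Osm* (1.13), which was not DE, and *Cntfr*.

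The genes most like each of the 8 were sought by Pearson r over the 18 libraries, after each cell type's mean was subtracted, among 10081 genes tested in all 3 tables. These values are descriptive, and libraries of a cell type share its conditions. *Lifr* was most like *Akap5* (0.845) and *Isoc1* (0.794), *Il6st* like *Pphln1* (0.878) and *Rps6ka3* (0.859), and *Jak1* like *Zfp148* (0.889) and *Virma* (0.885). *Stat3* came nearest to *Fig4* (0.913), *Socs2* to *Osgin2* (0.941) and *Zic2* (0.924), and *Socs3* to *Fbxo6* (0.899) and *Krt14* (0.883). For *Pim1* the nearest were *0610030E20Rik* (0.884) and *Nusap1* (0.873), and for *Pim3* *Lta4h* (0.932) and *Rassf3* (0.929). Among the 8 genes themselves the highest r were those of *Pim1* with *Pim3* (0.718) and of *Jak1* with *Stat3* (0.579).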

How the data were processed

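Bulk RNA-seq of 18 libraries was analysed from TPM that the authors deposited in a table for each cell type. The authors trimmed reads (cutadapt 2.4), aligned them to mm10 (STAR 2.7.5a, StringTie 2.0.6), counted them with featureCounts, dropped with edgeR 3.26.8 the genes that did not pass 0.4 CPM in 2 or more of the 6 libraries, restricted the set to protein-coding genes and scaled to TPM. Columns labelled as day 0 were taken as normoxia. The 8 genes, the wider list and the markers were chosen with earlier results of these data known.

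Genes above 0.4 TPM in at least 2 of 6 libraries were fitted with limma 3.58.1 (R 4.3.3, with a trend) on log2(TPM + 0.5). The study's count test was not run, since TPM are not counts. Whole reads were recovered (Python 3.11.15) from TPM times gene span: 98.7% to 98.9% of values per library fell within 0.05 of a whole read. They gave depth, exon-length levels (annotation GENCODE on GRCm38, the assembly of mm10) and the voom alternative. Scripts were tested on simulated data. From the wider list the text names DE genes and, per comparison with normoxia, the largest rise and fall; all 8 genes are named. For likeness, the 2 genes of highest r were taken; 1 of them is not reported here. Alternatives were another pseudocount (0.1 or 1), no filter, median-ratio scaling, 4 libraries, exon-length TPM, a replicate block and leaving out each library.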

Additional observations from a re-analysis of the deposited data

Results flagged for a closer look

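Of 72 comparisons of a fold change between 2 cell types, 8 met the rule for this list. In each, every library of one cell type moved one way and every library of the other moved the opposite way. None of these differences was tested, because the tables were normalized separately, and each is given as the first log2 fold change minus the second. In single comparisons with normoxia, 30.8% to 47.4% of all genes did not overlap. The share of all genes that moved in opposite ways was not computed, so nothing is read from the count of 8. For *Lifr* on day 2 against normoxia, ESCs minus TSCs was -0.65 and ESCs minus XEN cells -0.48, and on day 7 ESCs minus XEN cells was -0.55. For *Socs2* on day 7 against day 2, ESCs minus TSCs was 2.04 and ESCs minus XEN cells 1.16. For *Pim1* on day 7 against normoxia, ESCs minus TSCs was 0.87. For *Pim3* on day 7 against normoxia, ESCs minus XEN cells was -0.77 and TSCs minus XEN cells -1.10.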

How the results depend on the processing

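No fold change of a called gene changed sign under the alternatives run. With 2 libraries per group, leaving one out assumes that the lone library varies like the other groups. DE calls in TSCs were the least stable. On day 7 against normoxia the count of the 8 genes (1, *Socs2*) was 0 without the filter on low values, 0 with the replicate block and 0 to 1 when a library was left out; that of the wider list (1, *Cntfr*) was 0 without the filter, with median-ratio scaling, with the replicate block, with the 4 libraries compared and with voom, and 0 to 1 when a library was left out. On day 7 against day 2 the 8 genes gave 0 to 3 calls when a library was left out (3 with all), and the wider list 0 to 14 (10 with all) and 5 with median-ratio scaling. Leaving out a library gave 0 to 1 call among the 8 genes in XEN cells on day 2 (0 with all). For the wider list (0 with all) it gave 0 to 1 in ESCs on day 2, 0 to 2 in ESCs on day 7, 0 to 2 in XEN cells on day 7 and 0 to 1 in XEN cells on day 7 against day 2, and the 4 libraries compared gave 2 in ESCs on day 7. The causes were not tested.

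Replicates share numbers, and no source says that a number marks a shared culture: same-numbered deviations correlated at -0.46 to 0.27, so the fit has no block. The replicate block changed no count other than those above by over 1.5 times, though *Pim1* lost its call at day 7 against day 2 in TSCs. A crossed replicate block, with the day 2 numbers swapped and chosen after seeing the data, gave 1 call among the 8 genes and 1 in the wider list in TSCs on day 2 and 2 in the wider list in ESCs on day 7. Of 24 level differences between cell types 6 moved by more than the replicate SD on the scale shared by all tables, and all kept their direction.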
